A study of Sus scrofa with 16 samples.

Results

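The TGF-beta ligands, receptors and SMAD proteins were examined in the left ventricle of pigs after a myocardial infarction. Of 10 genes of this core pathway, 7 had a probe set whose single annotated symbol was the gene: TGFB1, TGFB2, TGFB3, TGFBR1, TGFBR3, SMAD3 and SMAD4. They were represented by 14 probe sets of the 23999 tested, and by 7 of the 6765 genes with a symbol of their own. TGFBR2, SMAD2 and SMAD7 had no probe set under their symbol in the annotation used and were not analysed here. The members were chosen by name, with earlier results of these data known.

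The series held 16 animals of the cross Yorkshire x Landrace, 2 to 3 months old. In the MI group 8 animals had a myocardial infarction, and in the sham group 8 had a sham operation; RNA came from tissue 3 weeks after the surgery. Among each 8 animals, 4 are labelled female and 4 male, and males entered the study only when neutered. RNA of crushed frozen left ventricle was measured on 1 Affymetrix porcine array per animal, and the labels do not say how far the tissue lay from the infarct. Animals are named by group and number, and values are log2 signals as deposited, so that a difference of 1 is a doubling. Levels of different probe sets are not on a common scale, so their order is not read as an order of transcript levels. Where a gene had several probe sets, they are named by letters from the brightest (a) downwards, by the mean of all 16 animals; the plots give the array's own identifiers beside these names.

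TGF-beta is secreted bound to its own propeptide in a latent complex held in the matrix. Once released, the ligand binds a complex of type I receptor (TGFBR1) and type II receptor (TGFBR2), often presented by the co-receptor betaglycan (TGFBR3). The type I receptor phosphorylates SMAD2 and SMAD3, which enter the nucleus with SMAD4 and change transcription, while SMAD7 is induced by the signal and inhibits it. In the injured heart the pathway is known for turning fibroblasts into myofibroblasts and for driving collagen deposition in the scar.

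The tissue carried its defining heart muscle transcripts, with MYH7 at 14.5 in both groups and a summed signal of the 6 cardiomyocyte markers of 16.7 to 16.8 in MI and 16.8 in sham animals (log2 of the sum, all arrays). By the poly-A spike-in controls the arrays formed a set A of 11 and a set B of 5 (MI 7, MI 8 and Sham 6 to Sham 8), which the labels do not name. Poly-A minus hybridisation control signal averaged -1.88 ± 0.32 over set A and -4.57 ± 0.45 over set B (SD). The actin control's 3' signal exceeded its 5' signal by 2.64 ± 0.29 in set A, by 1.42 ± 0.14 in set B, and by 2.39 ± 0.59 in MI and 2.12 ± 0.68 in sham animals (n = 8 each). MI 7 is labelled female, but its EIF1AY signal, from a gene of chromosome Y, was 9.51, against 9.40 to 9.96 in the 8 labelled males and 3.00 to 3.51 in the 7 other labelled females. Of 6 probe sets of chromosome Y, 2 separated the 8 labelled males from the 7 other labelled females. MI 7 reached the male range at 1 of these 2 and lay below that range at the other. The highest signal of 23 controls that have no target RNA was 4.99, which is used below as the limit of background. For 12 of the 14 member probe sets a group mean exceeded it.

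Between MI and sham animals 3 of the 14 probe sets passed at an adjusted p under 0.05 (limma, Benjamini-Hochberg over 23999 probe sets), against 10.5% of all probe sets; at an unadjusted p under 0.05 there were 6, against 23.6%. A TGFB1 probe set rose, and 1 probe set each of TGFB2 and TGFBR1 fell; among all probe sets 5.39% rose and 5.14% fell. In each of these 3 genes at least 1 other probe set lay on the opposite side of zero. The estimates were split evenly, with 7 above and 7 below zero and a median of 0.03, against a median of -0.00035 over all probe sets. In whole tissue, fewer cells of a type and less RNA per cell cannot be told apart.

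**Figure D1:**
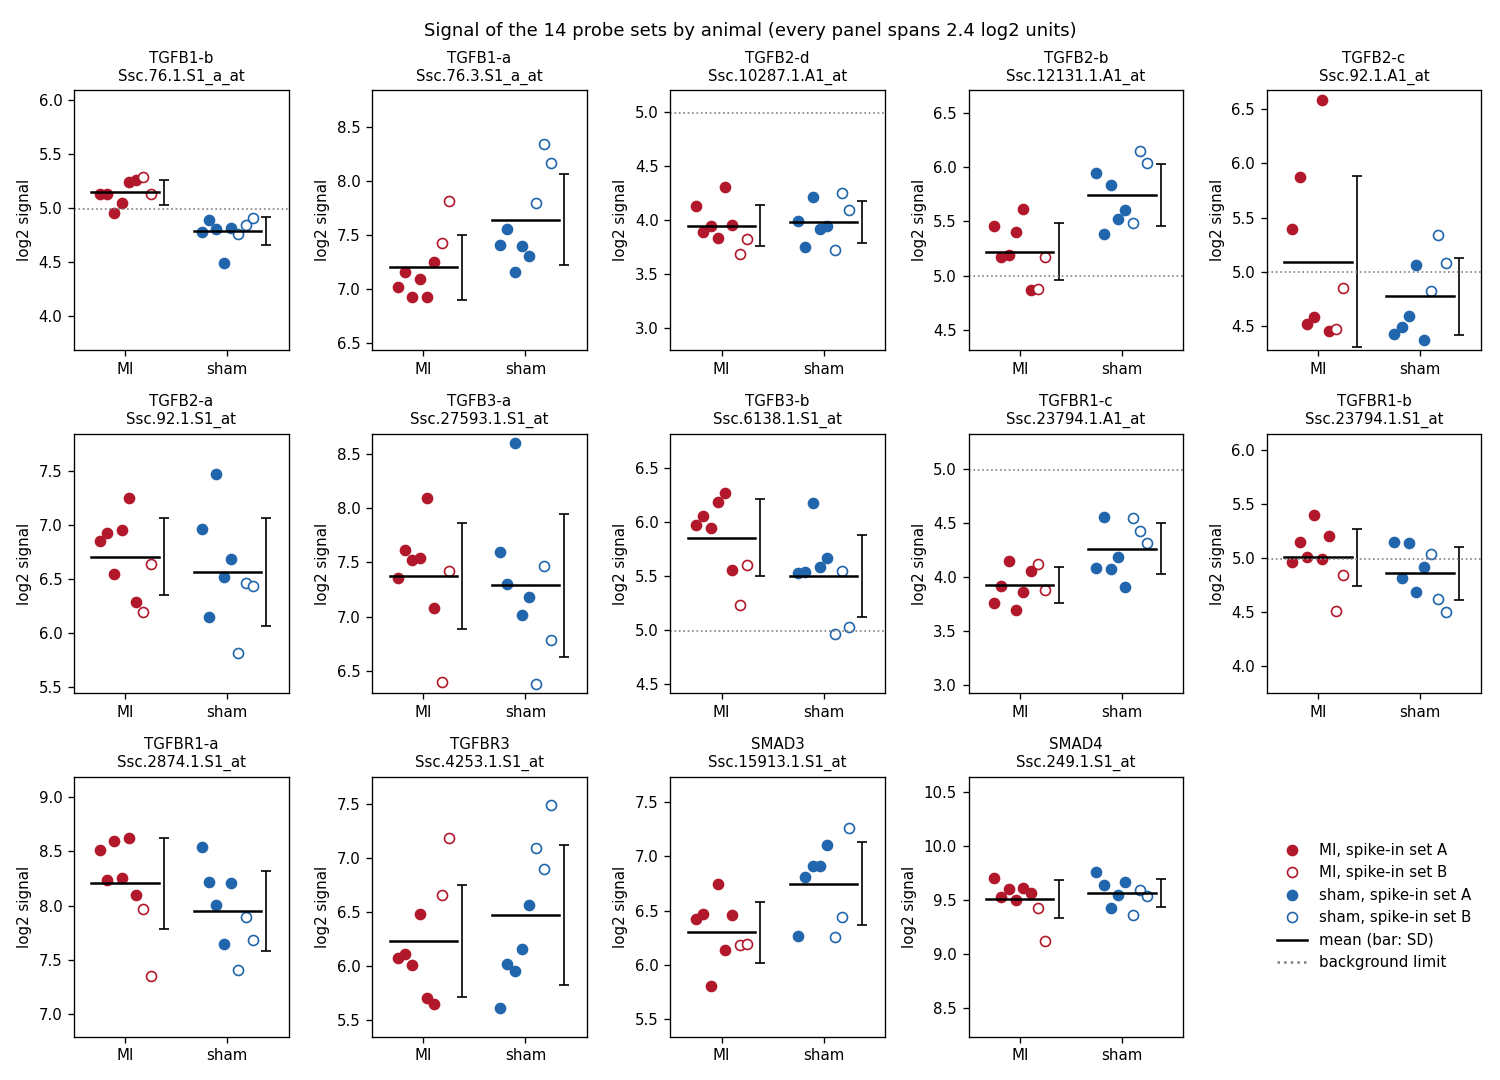
Log2 signal of each of the 14 probe sets in the 8 MI animals (left) and 8 sham animals (right); each point is 1 animal, open points are spike-in set B, black lines are group means, bars are SD and the dotted line is the background limit of 4.99. The groups stand apart without overlap at TGFB1-b, while at TGFBR3 the open points of set B lie above all filled points.

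TGFB1, the ligand most studied in cardiac fibrosis, lies on chromosome 6 from 49332169 to 49348642 (Sscrofa11.1, as for all positions given). Its probe sets, both annotated to the same RefSeq transcript and both of the kind whose probes match several transcripts of a gene, gave opposite signs. The probe set TGFB1-b ran from 4.95 over a median of 5.13 to 5.28 in MI animals, and from 4.49 over 4.81 to 4.91 in sham animals. All 8 MI animals lay above all 8 sham animals, the 1 member probe set of 14 without overlap, against 2.96% of all probe sets (1.57% in this direction). The difference was 0.36 (SE 0.07, 95% confidence interval 0.21 to 0.51, adjusted p = 0.0041). All 8 sham animals, and 1 of the MI animals (MI 3), lay below the background limit, so the signal was at least 1.11-fold higher in MI animals, counting sham animals at the limit.

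The brighter TGFB1 probe set, TGFB1-a, ran from 6.93 over 7.13 to 7.82 in MI animals and from 7.16 over 7.49 to 8.35 in sham animals. Here 7 of 8 MI animals lay below the sham mean, the exception being MI 8, and 5 lay below every sham animal. The difference was -0.44 (SE 0.17, interval -0.80 to -0.08, adjusted p = 0.117) and did not pass. This probe set also differed between the spike-in sets, with 7.20 ± 0.21 in set A and 7.91 ± 0.36 in set B, while TGFB1-b averaged 4.96 ± 0.23 over set A and 4.98 ± 0.22 over set B.

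Within set A the 6 MI animals ran from 6.93 to 7.25 and the 5 sham animals from 7.16 to 7.56 at TGFB1-a. Within set B, MI 7 and MI 8 were at 7.43 and 7.82, against 7.79 to 8.35 in the 3 sham animals. The fitted MI minus sham difference was -0.32 within set A, averaged over the sexes, and -0.48 within set B. With the set as a block the probe set passed (-0.36, SE 0.10, adjusted p = 0.0232), as it did in set A alone (adjusted p = 0.0471), but not with the block and without MI 7 (-0.30, adjusted p = 0.0566). The other probe set was higher in MI by 0.38 in set A (adjusted p = 0.0284) and by 0.37 in set B, where none of the 14 passed. Averaged over both probe sets with equal weight, TGFB1 differed by -0.04 (SE 0.10, adjusted p = 0.869). This mean takes in TGFB1-b, with all sham animals below the background limit, and is not read as a lack of change of the gene.

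**Figure D2:**
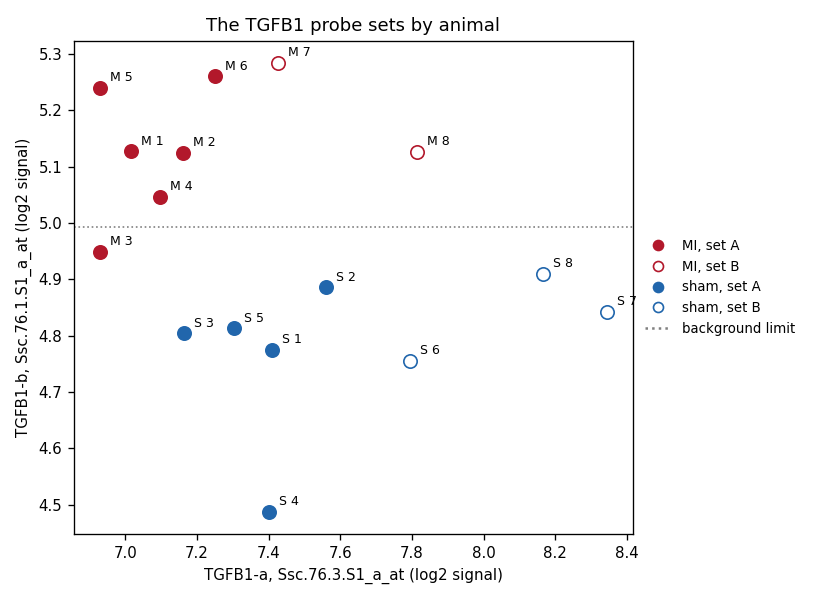
Log2 signals of the TGFB1 probe sets in each animal, TGFB1-a on the horizontal and TGFB1-b on the vertical axis (M, MI; S, sham; open points, spike-in set B; dotted line, background limit of 4.99). MI animals lie above sham animals on the vertical axis without overlap, and set B lies to the right within both groups.

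TGFB2, a ligand that binds its receptors weakly without betaglycan, lies on chromosome 10 from 8306136 to 8435307 and had 4 probe sets. TGFB2-b ran from 4.87 over 5.18 to 5.61 in MI animals and from 5.38 over 5.72 to 6.15 in sham animals. All 8 MI animals lay below the sham mean and 5 of them below every sham animal. The probe set fell by 0.53 (SE 0.13, interval -0.80 to -0.26, adjusted p = 0.0145), or 1.44-fold lower in MI. All 8 sham animals but 6 of 8 MI animals lay above the background limit, so this fold takes in MI values below it (MI 6 and MI 7). TGFB2-b did not pass within set A (-0.33, adjusted p = 0.149), and it was lower by 0.87 within set B.

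The other 3 TGFB2 probe sets did not pass; over the 11 arrays of set A their Pearson r with TGFB2-b was 0.61 for TGFB2-a, -0.01 for TGFB2-c and 0.41 for TGFB2-d, as a description. TGFB2-a, the brightest of them, was at 6.71 ± 0.36 in MI and 6.56 ± 0.50 in sham animals (n = 8 each), with a difference of 0.14 (interval -0.22 to 0.51, adjusted p = 0.684). TGFB2-c had the widest SD of the 14 in MI animals (0.79), from 4.45 over 4.71 to 6.58 in MI animals and from 4.37 over 4.71 to 5.34 in sham animals. Its 3 highest MI animals (MI 5 at 6.58, MI 2 at 5.87 and MI 1 at 5.40) lay above every sham animal, and the other 5 lay among the sham animals. The difference was 0.32 (interval -0.31 to 0.94, adjusted p = 0.576), and only 3 MI and 3 sham animals lay above the background limit. TGFB2-d stayed below the background limit in every animal and differed by -0.04 (adjusted p = 0.861).

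TGFB3, the third ligand, lies on chromosome 7 from 99133873 to 99162239, and its 2 probe sets moved together over the animals (Pearson r = 0.72 over the 11 arrays of set A, as a description). TGFB3-a ran from 6.40 over 7.47 to 8.10 in MI animals and from 6.37 over 7.24 to 8.61 in sham animals. TGFB3-b ran from 5.23 over 5.96 to 6.27 in MI animals and from 4.96 over 5.55 to 6.18 in sham animals. The groups overlapped at both, although 7 of 8 MI animals lay above the sham mean at the second. The differences were 0.09 (interval -0.39 to 0.57, adjusted p = 0.867) and 0.35 (interval 0.02 to 0.67, adjusted p = 0.179). Both probe sets were lower in set B, by 0.65 and 0.59.

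**Figure D3:**
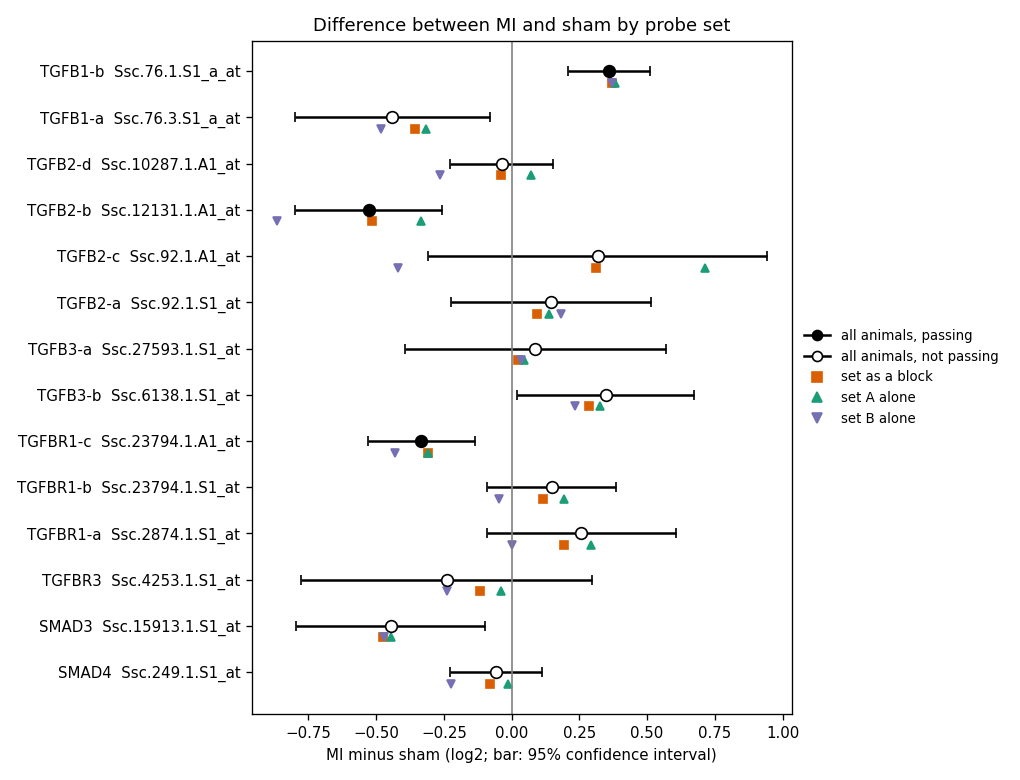
MI minus sham difference of each probe set on the log2 scale, with 95% confidence intervals from all 16 animals (circles, filled where the adjusted p is under 0.05), and the difference blocked on the spike-in set (squares), in set A alone (triangles up) and in set B alone (triangles down). The 3 filled circles are at 0.36 for TGFB1, -0.53 for TGFB2 and -0.33 for TGFBR1.

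TGFBR1, the type I receptor kinase that phosphorylates the SMADs, lies on chromosome 1 from 240842735 to 240918267. Its brightest probe set, TGFBR1-a, ran from 7.35 over 8.25 to 8.63 in MI animals and from 7.40 over 7.95 to 8.55 in sham animals. MI 8 was the lowest animal of all, and the other 7 MI animals lay above the sham mean. The difference was 0.26 (interval -0.09 to 0.61, adjusted p = 0.383). The signal was lower in set B by 0.61, and MI minus sham came to 0.29 within set A and to 0.0008 within set B, neither passing.

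The probe sets TGFBR1-c and TGFBR1-b are annotated to one and the same TGFBR1 sequence entry and had opposite signs. TGFBR1-c was 3.93 ± 0.17 in MI and 4.26 ± 0.24 in sham animals, and each of the 8 MI animals lay below the sham mean. The difference was -0.33 (SE 0.09, interval -0.53 to -0.13) and passed (adjusted p = 0.0322). All 16 animals lay below the background limit, so no fold is given. The call was lost when any 1 of MI 1, MI 2, MI 4, MI 5, MI 8, Sham 2, Sham 6 or Sham 7 was left out (adjusted p up to 0.0675), in set A alone (0.0964) and with the actin 3' minus 5' signal as a covariate (0.0509). TGFBR1-b was 5.01 ± 0.26 in MI and 4.86 ± 0.24 in sham animals, a difference of 0.15 (interval -0.09 to 0.39, adjusted p = 0.477). Across the 11 animals of set A the Pearson r between these probe sets was -0.54. Averaged over its 3 probe sets with equal weight, TGFBR1 differed by 0.02 (SE 0.08, adjusted p = 0.896). This mean takes in TGFBR1-c, below the background limit in every animal, and is not read as a lack of change of the gene.

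TGFBR3, betaglycan, lies on chromosome 4 from 125109939 to 125310788. It ran from 5.65 over 6.09 to 7.18 in MI animals and from 5.61 over 6.36 to 7.48 in sham animals, with a difference of -0.24 (interval -0.78 to 0.30, adjusted p = 0.637). The spike-in sets lay apart at this gene, with 6.03 ± 0.31 in the 11 animals of set A and 7.06 ± 0.31 in the 5 animals of set B, without overlap. Within set A the difference between MI and sham was -0.04, and within set B it was -0.24; neither passed.

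SMAD3, the receptor-activated SMAD that binds DNA, lies on chromosome 1 from 164998457 to 165124455. It ran from 5.80 over 6.30 to 6.74 in MI animals and from 6.26 over 6.86 to 7.27 in sham animals. All 8 MI animals lay below the sham mean, and 4 lay below every sham animal. The difference was -0.45 (SE 0.16, interval -0.80 to -0.10) and did not pass (adjusted p = 0.102). It had nearly the same size with the set as a block (-0.47, adjusted p = 0.0702), in set A (-0.45) and in set B (-0.47), and it passed without Sham 6 (-0.54, adjusted p = 0.0416).

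SMAD4, the partner shared with the BMP branch, lies on chromosome 1 from 100521843 to 100633501. It ran from 9.12 over 9.54 to 9.71 in MI animals and from 9.36 over 9.57 to 9.76 in sham animals, and the groups overlapped through most of this range. The difference was -0.06 (interval -0.23 to 0.11, adjusted p = 0.728).

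The effect of the infarction was next set out within each sex. In females 1 probe set passed, TGFB2-b (-0.72, SE 0.18, adjusted p = 0.0438), against 2.85% of all probe sets (1.28% lower). Without MI 7 it did not pass (-0.62, adjusted p = 0.12). In males limma gave 0 of 14 passing, against 3.4% of all probe sets, with adjusted p from 0.0587 upwards. At an unadjusted p under 0.05 there were 9, against 19%, among them both TGFB1, both TGFB3 and every TGFBR1 probe set. Of the males, 0 of 4 MI and 2 of 4 sham animals were in set B. With the set as a block the male difference was 0.44 at TGFB3-a (0.69 without), 0.41 at TGFBR1-a (0.66) and -0.35 at TGFB1-a (-0.68). At SMAD3 it was -0.63 (-0.53 without) and at TGFB1-b 0.41 (0.36). The count of 9 is not read as a result about the members. TGFB1-b was higher by 0.36 in females and by 0.36 in males.

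Several members had estimates below or near zero in females and above zero in males. TGFB3-a was 7.20 ± 0.54 in MI females and 7.71 ± 0.62 in sham females, and 7.56 ± 0.42 in MI males and 6.87 ± 0.39 in sham males (n = 4 each). TGFBR1-a was 8.02 ± 0.50 in MI females and 8.16 ± 0.29 in sham females, and 8.39 ± 0.26 in MI males and 7.74 ± 0.34 in sham males. TGFBR3 differed by 0.25 in females and by -0.73 in males. For the difference between the sexes limma gave 0 of 14 passing and 0% of all 23999. At an unadjusted p under 0.05 there were 5 of the 14, probe sets of TGFB2, TGFB3 and TGFBR1, against 5.68%. With the spike-in set as a term or in set A alone, 0 of the 14 had an unadjusted p under 0.05. The share of all probe sets in those fits is not given here, and set A holds fewer animals. The change in count is not read as a result about the members. For TGFB3-a the female minus male difference of the MI effect was -1.21 (SE 0.45, adjusted p = 0.794).

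The spike-in sets were spread unevenly over sex and group: 2 of 4 MI females, 0 of 4 MI males, 1 of 4 sham females and 2 of 4 sham males were in set B. With the set as a block the sex difference of the MI effect at that TGFB3 probe set was -0.83, and in set A alone -0.71 (adjusted p rounding to 1 in both); without MI 7 it was -0.94 (adjusted p = 0.979). At TGFBR1-a it was -0.80 in all animals, -0.43 with the block and -0.34 in set A. At TGFBR3, where the sets lay apart, it was 0.98 in all animals, 0.25 with the block and 0.17 in set A. For female against male over both groups limma gave 0 of 14 passing, against 0.0583% of all probe sets, with differences from -0.15 to 0.28; 0 had an unadjusted p under 0.05, against 3.11%.

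**Figure D4:**
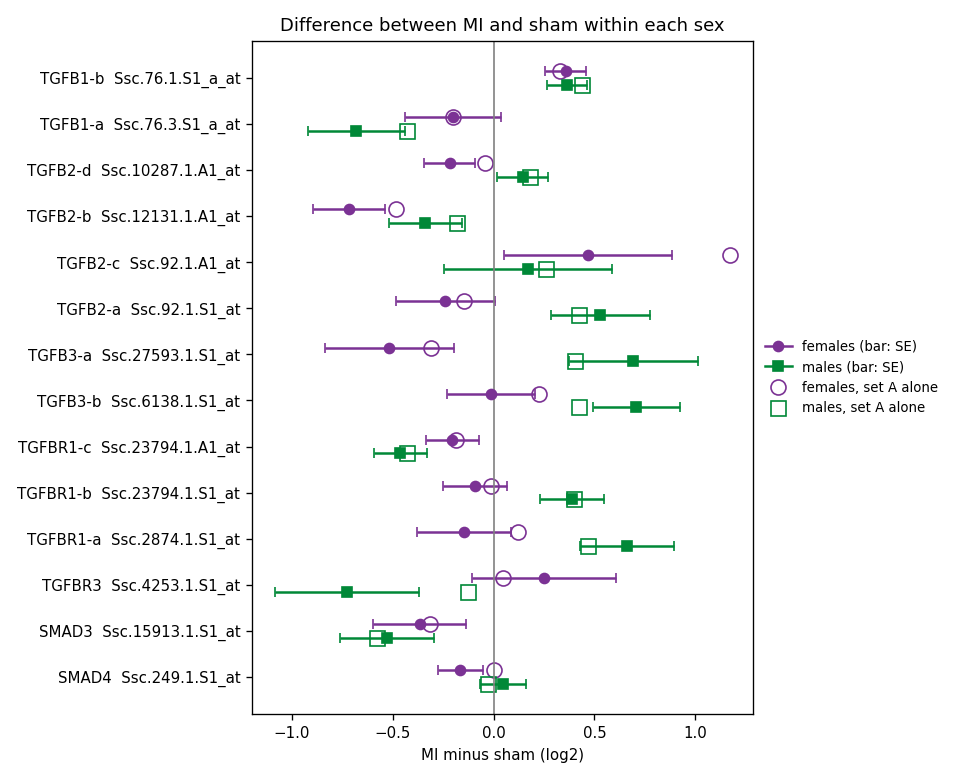
MI minus sham difference on the log2 scale in labelled females (purple circles) and labelled males (green squares) with SE, and the same in spike-in set A alone (open symbols), for the 14 probe sets. At TGFB1-b both sexes are at 0.36, while at TGFB3-a they are at -0.52 in females and 0.69 in males.

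Around these members, 6 lists covered latent complex and activation, accessory receptors, SMAD partners, target genes, the BMP and activin branch and the SMAD-independent branch. Of 122 listed symbols 66 genes were measured; with the brightest probe set of each, 5 rose and 1 fell between MI and sham animals, against 4.12% and 3.5% of the 6765 genes. The median difference over the 66 was -0.02.

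The activation list, which holds proteases and integrins that release TGF-beta from its latent complex, had 4 of 10 measured genes passing (7.63% of all genes passed in either direction). In set A alone 2 of the 10 passed, against 2324 of all 23999 probe sets. Among the 16000 brightest probe sets 2 of the list passed, against 654 of the 16000, and in set B alone 0, against 1 of all 23999. MMP14 and MMP9, proteases able to release the ligand, rose by 1.13 (adjusted p = 0.00014) and 0.54 (adjusted p = 0.000569). All 8 sham animals were at or below the background limit at MMP9, so it was at least 1.23-fold higher in MI animals. MMP2, the other metalloproteinase of the list, differed by -0.34 (adjusted p = 0.271), with 6 of 8 MI animals below the sham mean. ITGAV, the alpha V chain of the integrins that pull on latent TGF-beta, was 8.95 ± 0.25 in MI and 8.57 ± 0.18 in sham animals (n = 8 each). Each of the 8 MI animals lay above the sham mean, and ITGAV rose by 0.38 (SE 0.10, adjusted p = 0.0226). PLG, plasminogen, fell by 0.32 (adjusted p = 0.0318), at 4.88 ± 0.13 in MI and 5.20 ± 0.20 in sham animals, with 1 MI animal and 7 sham animals above the background limit. The partner chains ITGB1, ITGB3 and ITGB5 differed by 0.04, -0.36 and -0.21, and THBS1, the matrix protein thrombospondin-1, by -0.30 (adjusted p from 0.139 to 0.819).

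Among 6 accessory receptors and binding proteins limma gave 0 passing, with 1 at an unadjusted p under 0.05, against 23.6% of all probe sets. The lowest p was that of BAMBI, a decoy receptor lacking the kinase domain, at 6.30 ± 0.16 in MI and 6.05 ± 0.22 in sham animals, which differed by 0.24 (adjusted p = 0.12). LRG1, a binding partner of the accessory receptor endoglin, differed by 0.14 and BGN, the proteoglycan biglycan, by -0.32. Among 6 SMAD partners and regulators limma gave 0 passing, with 1 at an unadjusted p under 0.05, against the same 23.6%. PDPK1, a kinase, differed by -0.18, TGIF1, a corepressor of SMAD2 and SMAD3, by 0.26, and PMEPA1, an inducible inhibitor of the pathway, by -0.22 (adjusted p from 0.199 to 0.594).

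Of 19 measured target genes 1 passed, against 7.63% of all genes. CDKN2B, the cell cycle inhibitor p15 induced through SMADs in epithelial cells, ran from 4.43 to 4.94 in MI animals and from 4.00 to 4.28 in sham animals. It rose by 0.52 (SE 0.07, adjusted p = 0.000447), but all 16 animals were below the background limit, so no fold is given, and with the probe sets above background alone no gene of this list passed. The others lay between -0.59 (POSTN, adjusted p = 0.257) and 0.18, and none of them passed. They include the collagens COL1A2 (-0.18), COL3A1 (0.18) and COL5A1 (-0.24), fibronectin FN1 (-0.07), the myofibroblast actin ACTA2 (-0.14) and the early SMAD targets ID1 (0.015) and ID3 (0.10).

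Of 17 genes of the BMP, activin and GDF branch 1 passed, against 7.63% of all genes. This was ACVR2B, an activin receptor, which rose by 0.25 (adjusted p = 0.00841) with all 16 animals below the background limit. With the spike-in set as a term 2 of the 17 passed, and in set A alone 0, as among the probe sets above background. Over all probe sets 3100 passed with the term, 2324 in set A and 993 above background. Among 8 genes of the SMAD-independent branch limma gave 0 passing, with 1 at an unadjusted p under 0.05, against 23.6% of all probe sets. TRAF6, the ubiquitin ligase that links the receptors to the kinase TAK1, differed by -0.37 (adjusted p = 0.141), RHOA by 0.11 and MAPK8 by 0.16.

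**Figure D5:**
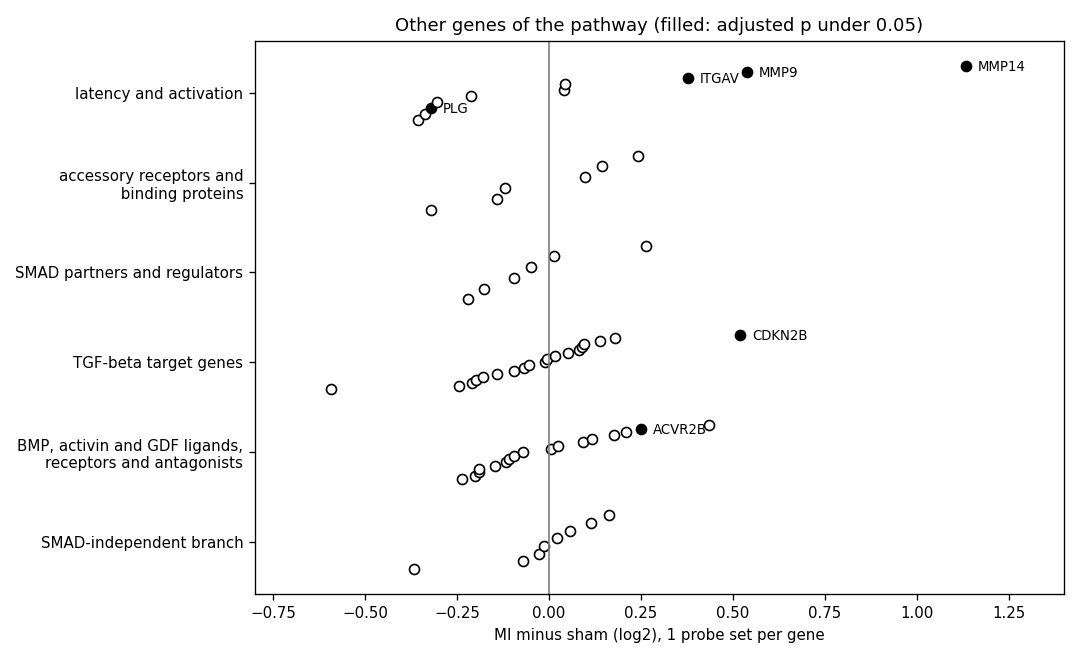
MI minus sham difference on the log2 scale for the 66 measured genes of 6 pathway lists, 1 probe set per gene; filled points have an adjusted p under 0.05 and are named. Of the 6 filled points 4 are in the activation list.

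Markers of other cells that could carry TGF-beta transcripts differed in part. With the brightest probe set of each gene, limma gave 0 passing of 5 markers for fibroblasts, 4 for smooth muscle and myofibroblasts, 5 for endothelium and 4 for platelets. Of these, 1 endothelial marker had an unadjusted p under 0.05, against 23.6% of all probe sets. Of 7 other probe sets of the endothelial markers 1 was higher in MI animals by limma, against 5.39% of all probe sets. Against 4.12% of all genes, CD14, 1 of 3 macrophage markers, rose, as did 3 of 5 for T and NK cells, 2 of 4 for erythroid cells, 1 of 2 for mast cells and 2 of 3 for adipocytes. The remaining markers of these lists did not pass. Negative estimates were those of CD3E (-0.26), CD2 (-0.08) and HBB (-0.06). Positive estimates were those of CD86 (0.39), CD163 (0.13), ALAS2 (0.59), KIT (0.55) and FABP4 (0.24). The summed marker signal (log2) overlapped between the groups for every list. It was 9.97 to 11.2 in MI and 10.2 to 10.6 in sham animals for macrophages, and 7.96 to 8.68 in MI and 7.92 to 8.56 in sham animals for T and NK cells. It was 8.91 to 9.98 in MI and 8.75 to 9.38 in sham animals for erythroid cells, and 8.59 to 9.75 in MI and 7.77 to 9.48 in sham animals for mast cells. For adipocytes it was 11.4 to 12.3 in MI and 10.9 to 12.2 in sham animals. Of the defining markers, ADIPOQ and PPBP had both group means below the background limit. The part of these cells in the TGF-beta results was not tested.

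The genes most like each TGFB1 probe set were found by Pearson r over the 16 animals among 8277 other probe sets above background. For TGFB1-b they were HPN (0.91), DNAJC3 (0.90) and HGFAC (0.87), which rose between MI and sham animals by 0.61, 0.39 and 0.71. After removal of the group mean within each spike-in set the r was 0.64, 0.61 and 0.36. For TGFB1-a they were KIAA0513 (0.94), PLSCR3 (0.94) and the endothelial receptor gene TIE1 (0.93), with 0.69, 0.68 and 0.78 after removal, and none of the 3 passed between the groups (adjusted p from 0.222 to 0.326). For TGFB2-b they were EFR3A, SLC16A13 and AGK (0.86, 0.84 and 0.84), and for TGFBR1-c HGH1, FAM207A and CHD7 (0.91, 0.87 and 0.84). The animals of these correlations share their group and their spike-in set, and the genes were picked for the size of r.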

How the data were processed

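The deposited values are log2 signals of 24123 probe sets on 16 arrays, as judged from their range (2.87 to 14.9) and equal medians (6.24). How the authors normalized them, and with which software, is not given in the sources used here. Values were used as deposited, without the 124 controls. Of the 23999 others 10069 carried 1 symbol, updated by Entrez identifier to RefSeq for Sscrofa11.1 (6700 of 6774 identifiers matched), 198 several and 13732 none. Probe sequences were not used here.

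Differences were fitted in R 4.3.3 with limma 3.58.1, with 1 coefficient per cell of group and sex (12 residual degrees of freedom, moderated variances), and adjusted by Benjamini-Hochberg over 23999 probe sets. Tests were two-sided, and p-values measure the spread between animals. The number of animals limits the precision. The fit was tested on simulated data. Every member probe set is reported; from each pathway list up to 4 passing genes, or the 3 with the lowest p, and others singled out after their values were seen. The members, lists and alternatives were chosen with earlier results of these data known. Spike-in sets were split at the widest gap of the controls.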

Additional observations from a re-analysis of the deposited data

Results flagged for a closer look

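Among the 28 groups of 8 values (14 probe sets in MI and in sham animals), 2 held an animal whose gap to its neighbour was large for the range of the group; chance flags about 5% of such groups. At TGFB1-b Sham 4 was at 4.49, and the next sham animal at 4.76. Without Sham 4 the MI minus sham difference was 0.31 (limma adjusted p = 0.0062), against 0.36 with all animals. At SMAD4 MI 8 was at 9.12, and the next MI animal at 9.43. Without MI 8 the difference was -0.0043 (adjusted p = 0.978), against -0.06 with all animals.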

How the results depend on the processing

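The rise of TGFB1-b passed without any 1 animal (0.31 to 0.39) and in every other fit that tested it except set B alone and the 1.5-fold limit. The 3 passing member probe sets became 2 to 3 without any 1 animal and 1 among the 16000 brightest. At an adjusted p under 0.01 there was 1, and at a fold of at least 1.5 there were 0. By limma in set B alone (5 arrays, group only) 0 passed, and 3 had an unadjusted p under 0.05, against 2643 of all 23999. There 4 of 14 had groups apart, with 2 MI and 3 sham arrays. The share of all probe sets apart in set B was not taken, so this count is not read as a result. Among the 16000 brightest no member had groups apart. In females 0 passed in set A alone, among the brightest, above background, with an offset of 32, with array weights and with the set block without MI 7 (0 to 1 without any 1 animal). In males 1 passed with trend and robust estimation and 4 passed with array weights (0 to 2 without any 1 animal). For these counts within a sex the share of all probe sets in the same fits was not taken. They are not read as a result about the members. Over all probe sets 654 passed among the brightest, 993 above background, 1123 under 0.01, 207 at 1.5-fold, 1 in set B and 2045 to 2537 without any 1 animal. Of the pathway lists, the activation list had 0 to 4 passing over these alternatives, the target list 0 to 2 (2 without Sham 5), the BMP list 0 to 2 (2 without MI 7 or without Sham 5) and the accessory list 0 to 1 (1 without Sham 4). The causes were not tested. Signs turned only near zero or in set B: TGFB2-d was 0.071 in set A, 0.0052 with the set block without MI 7, 0.0045 with array weights and -0.085 to 0.00031 without any 1 animal; TGFB2-c was -0.42 and TGFBR1-b -0.047 in set B; TGFB3-a was -0.0071 with the actin covariate and -0.0015 to 0.24 without any 1 animal. The animal numbers were not treated as pairs in the main fit. The correlation of deviations ran from -0.07 to 0.46 and was over 0.1 in 4 of 8 pairs, which does not settle whether the animals were paired. With the replicate block 4 member probe sets and 2790 of all passed by limma, TGFB1-a among them (-0.44, adjusted p = 0.0062). With all animals every member difference was under 1.5-fold. The median size of these differences, without regard to sign, was 0.29, against 0.11 over all probe sets. For 2 of 14 probe sets no group mean was above background.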

Other observations

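The pathway genes had 46 probe sets besides the brightest of each gene, and 2 of these were higher and 2 lower in MI animals by limma, against 5.39% higher and 5.14% lower of all probe sets. In each case the brightest probe set of the gene did not pass. BHLHE40, a transcription factor inducible by TGF-beta, was lower by 0.45 at a dimmer probe set, with 5.01 ± 0.19 in MI and 5.46 ± 0.11 in sham animals (n = 8 each, adjusted p = 0.0027), while its brighter probe set differed by -0.0047. ACVR2A, an activin receptor, was lower by 0.31 at a dimmer probe set (adjusted p = 0.0305), while its brighter probe set differed by 0.44 (adjusted p = 0.085). INHBB, an activin subunit, and COL1A2, a chain of type I collagen, were higher by 0.31 and 0.32 at probe sets below the background limit. These 4 genes were singled out after their values were seen.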
